A study of Mus musculus with 4 samples.

Results

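Gpnmb, Trem2, Cd68, Ms4a7, Cd9, Lgals3, Ccr2, Itgax, Lyz2 and Mmp12 are genes by which recruited, phagocytic and lipid-associated macrophages are recognised in tissues. They were taken as a list of symbols, with every probe set of the array that names a listed symbol and no other gene. That gave 16 of 45037 probe sets for these 10 of 18193 genes, and 15 of the 16, covering all 10 genes, passed the filter on low values. RNA from whole livers of 4-week-old C57BL/6 mice was measured on an Affymetrix 3' expression array, with 1 array for each of 2 Cnot3KO and 2 Control livers. The Cnot3KO mice carried floxed Cnot3 together with Cre recombinase under the albumin promoter (Alb-cre). That promoter is active in hepatocytes and their precursors and not in macrophages. Both Cnot3 alleles are taken to be floxed in these mice, since the study's methods count Alb-cre with a single floxed allele as a control. The gene encodes a part of the Ccr4-Not deadenylase complex, which trims poly(A) tails before mRNA decay. The Control livers are labelled wild type; by the study's methods a control mouse could carry floxed alleles without Alb-cre, or Alb-cre with at most a single floxed allele, and which of these each liver was is not given in the sources used here.

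The liver holds resident macrophages, the Kupffer cells, and in injured or fatty liver it also receives monocytes from the blood, which enter by the chemokine receptor Ccr2 and turn into macrophages. Those that take up dead cells and lipid switch on a programme known as lipid-associated, with the receptor Trem2, the lysosomal glycoproteins Cd68 and Gpnmb, the tetraspanin Cd9 and galectin-3 (Lgals3). Lysozyme (Lyz2) and the integrin Itgax (CD11c) are carried by many myeloid cells, Ms4a7 marks macrophages that come from monocytes, and Mmp12 is the macrophage elastase. Several of these genes are not confined to macrophages: Cd9 and Lgals3 are also made by biliary and other epithelia, and Gpnmb by pigment cells and osteoclasts. In RNA from whole liver, more macrophages and more of a transcript per macrophage cannot be told apart.

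The start-site windows below are shown because the letters TGAGTCA, the binding word of AP-1, occur in them; AP-1 is a family of transcription factors active in stimulated macrophages. The windows come from RefSeq (GRCm38.p6), run from 250 bases before to 50 bases after an annotated start, and are written in the direction of the gene. All 10 genes matched, with 12 windows, since Mmp12 and Ms4a7 have 2 each. Capitals mark TGAGTCA or the same word read from the other strand.
Gpnmb (chr6:49036268-49036567, plus strand): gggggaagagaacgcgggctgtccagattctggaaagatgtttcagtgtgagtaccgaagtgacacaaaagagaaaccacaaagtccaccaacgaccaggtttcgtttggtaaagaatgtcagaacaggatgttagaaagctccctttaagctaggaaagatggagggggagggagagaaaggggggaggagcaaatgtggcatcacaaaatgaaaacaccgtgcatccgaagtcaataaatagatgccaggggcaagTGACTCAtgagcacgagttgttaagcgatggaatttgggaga
Cd68 (chr11:69666121-69666420, minus strand): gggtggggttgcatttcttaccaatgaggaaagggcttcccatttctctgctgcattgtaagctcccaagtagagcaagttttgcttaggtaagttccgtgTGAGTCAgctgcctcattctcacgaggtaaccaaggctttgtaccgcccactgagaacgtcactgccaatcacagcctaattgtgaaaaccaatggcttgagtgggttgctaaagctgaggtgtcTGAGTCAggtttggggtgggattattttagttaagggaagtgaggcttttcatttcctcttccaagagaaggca
Itgax (chr7:128129300-128129599, plus strand): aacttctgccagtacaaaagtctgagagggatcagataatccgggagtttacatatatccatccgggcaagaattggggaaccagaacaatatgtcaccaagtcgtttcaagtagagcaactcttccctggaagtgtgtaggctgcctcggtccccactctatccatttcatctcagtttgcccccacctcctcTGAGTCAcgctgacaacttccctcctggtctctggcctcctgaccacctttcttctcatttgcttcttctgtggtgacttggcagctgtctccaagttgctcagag
Mmp12 (chr9:7347124-7347423, plus strand): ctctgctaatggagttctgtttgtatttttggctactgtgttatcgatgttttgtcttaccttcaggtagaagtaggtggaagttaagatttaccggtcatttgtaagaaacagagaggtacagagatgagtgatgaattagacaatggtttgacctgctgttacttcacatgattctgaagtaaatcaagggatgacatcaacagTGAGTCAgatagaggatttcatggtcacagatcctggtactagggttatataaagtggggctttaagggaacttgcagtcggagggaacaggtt
TGAGTCA on either strand was found in 4 of the 12 windows, of 4 genes, and in 5.2% of 32851 mouse windows. Cd68 held it at 149 and 24 bases before the start, Itgax at 56 and Mmp12 at 44 bases before, and Gpnmb at 8 bases after. GAGGAAGT, a word bound by the myeloid factor PU.1, was in 1 of the 12 windows (the other Mmp12 window) and in 3.2% of all windows. Its core GAGGAA, which lies within it, was in 4 of the 12, of Cd68, Mmp12, Ms4a7 and Trem2, and in 28.3% of all. CACGTG, the E-box word of the Mitf and Tfeb family, was in 0 of the 12 and in 7.15% of all. A match shows only that the letters are in the window.

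In Cnot3KO livers 8 of the 10 genes rose, 0 fell, and Ccr2 and Lyz2 did not pass the test. Values are log2 intensities after Robust Multi-array Average (RMA) processing, a difference is the mean of Cnot3KO minus the mean of Control, and a gene is taken by the brightest of its kept probe sets. The test was limma with Benjamini-Hochberg adjustment over 38405 probe sets, and a gene was said to rise or fall at an adjusted p under 0.05. Among all 16758 genes kept, 12.2% rose and 4.64% fell. The median difference of the 10 genes was 2.27, beside 0.00 for all genes, and the smallest and largest were -0.00 for Ccr2 and 4.22 for Mmp12. In 9 of the 10 genes both Cnot3KO livers lay above both Control livers, which held for 34.8% of all genes. By probe set, 10 of the 15 rose and 0 fell, beside 8.48% and 4.78% of all probe sets. The 10 genes were chosen with earlier results of these data known, so these shares are no independent support for the list. Labels do not say whether the 2 livers of a group came from separate litters. The p rests on the spread between these livers only, for the probe set itself and, through the limma prior, for all kept probe sets.

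**Figure D1:**
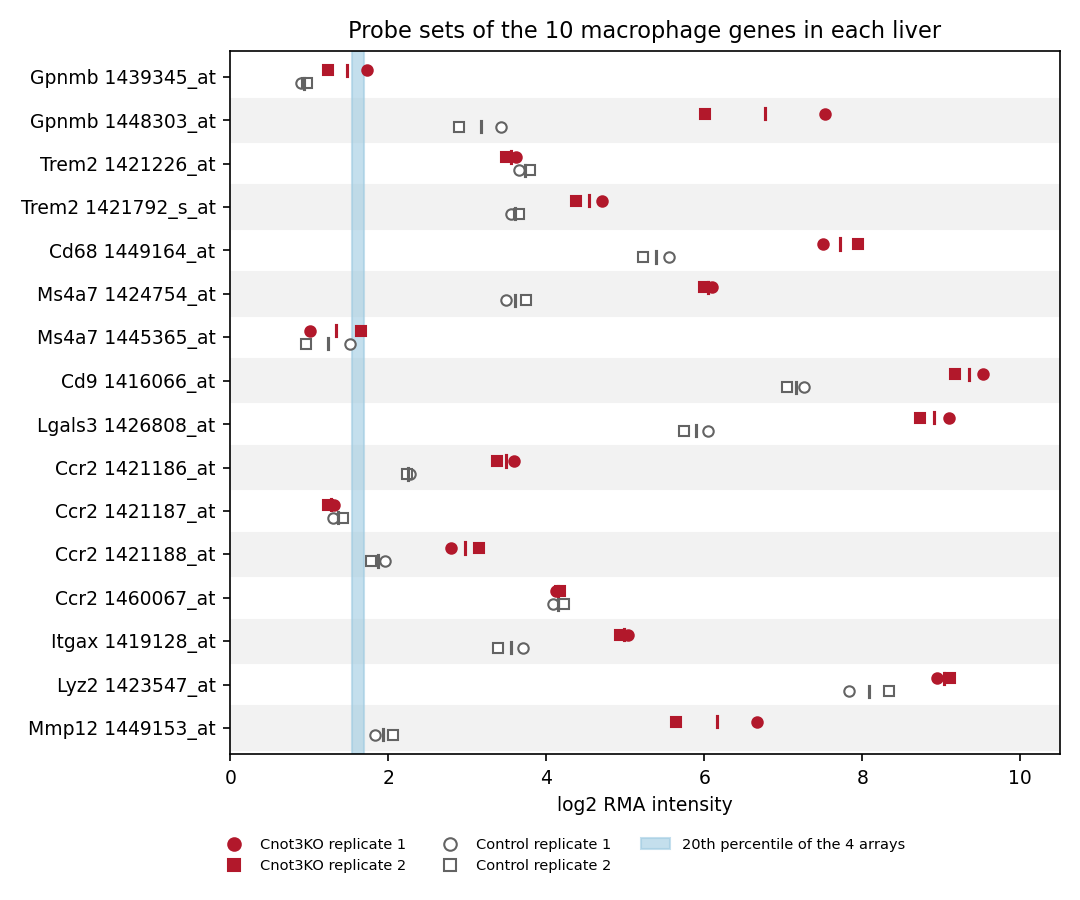
Log2 RMA intensity (x axis) of each of the 16 probe sets (rows) in the 2 Cnot3KO livers (filled, upper) and the 2 Control livers (open, lower), with short lines at group means and a band at the 20th percentiles of the 4 arrays. Mmp12, Gpnmb 1448303_at and Lgals3 show the widest gaps between groups (3.59, 2.57 and 2.67), whereas Ccr2 1460067_at overlaps.

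Of the proteins of the lysosome, Gpnmb and Cd68 both rose. Gpnmb encodes a membrane glycoprotein of lysosomes and phagosomes. Its probe set 1448303_at measured 7.53 and 6.01 in Cnot3KO livers, against 3.43 and 2.90 in Control livers. The groups did not overlap, and the Cnot3KO livers lay 1.52 apart, the widest gap between replicates among the probe sets that rose. The difference was 3.60 ± 0.52 (SE, n = 2 per group; limma adjusted p = 0.0153), or 12.1-fold with a 95% interval of 4.94 to 29.8. A further Gpnmb probe set, 1439345_at, lay near the bottom of every array, with 1.73 and 1.24 in Cnot3KO and 0.89 and 0.97 in Control, and did not pass (adjusted p = 0.159). Cd68, a heavily glycosylated protein of macrophage lysosomes, measured 7.50 and 7.95 in Cnot3KO livers and 5.55 and 5.23 in Control livers. Its difference of 2.34 ± 0.23 was 5.05-fold (adjusted p = 0.00727), and here the second Cnot3KO liver was the higher. Without Control replicate 1 or Control replicate 2 the Gpnmb call was lost (adjusted p = 0.0662 and 0.0665), with differences of 3.87 and 3.34. Without Cnot3KO replicate 1 its difference was 2.84 and without Cnot3KO replicate 2 it was 4.36, and both passed.

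Lamp1 and Lamp2, the major membrane proteins of all lysosomes and relatives of Cd68, did not follow it. Lamp1 measured 10.21 and 9.96 in Cnot3KO against 10.76 and 10.69 in Control, a difference of -0.64 ± 0.17 (adjusted p = 0.072). Lamp2 differed by -0.31 (adjusted p = 0.329) by its brightest probe set, and 1 of its 3 other kept probe sets fell. Pmel, the melanosome protein to which Gpnmb is related, differed by 0.03.

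Trem2 and Ms4a7 are receptors or receptor-like proteins of the macrophage surface. Trem2 binds lipids and lipoproteins and signals through Tyrobp. Its probe set 1421792_s_at measured 4.70 and 4.38 in Cnot3KO livers and 3.55 and 3.66 in Control livers, a difference of 0.94 ± 0.19 (adjusted p = 0.0335) or 1.92-fold. The other probe set, 1421226_at, measured 3.62 and 3.49 in Cnot3KO and 3.65 and 3.80 in Control, a difference of -0.17 ± 0.17 (adjusted p = 0.523), so the 2 probe sets of Trem2 disagreed. The rise of Trem2 passed in 7 of 16 alternatives and was lost without any of the arrays: adjusted p was 0.179 and 0.0707 without Cnot3KO replicate 1 and 2, and 0.109 and 0.0773 without Control replicate 1 and 2. Ms4a7, a protein with 4 membrane spans, rose. Its probe set 1424754_at measured 6.10 and 6.00 in Cnot3KO against 3.49 and 3.74 in Control, a difference of 2.44 ± 0.18 (adjusted p = 0.00422) or 5.42-fold. Its other probe set, 1445365_at, was near the bottom of every array (1.01 and 1.66 in Cnot3KO, 1.52 and 0.96 in Control) and the groups overlapped.

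Neighbours of both receptors were read from lists. Of 6 measured genes of Trem2 signalling, 2 rose and 0 fell: Tyrobp, the adaptor that carries the signal, by 1.29 ± 0.17, and Inpp5d, a lipid phosphatase that limits it, by 0.92 ± 0.17 (adjusted p = 0.0123 and 0.0293). Syk, the kinase recruited by Tyrobp, differed by 0.69 and did not pass. Of 5 Trem relatives 0 passed after adjustment (1 did at an unadjusted p under 0.05 by limma and 0 by the methods' test), and the largest difference was 0.66, for Treml4. In the Ms4a family 5 of 10 measured genes rose and 0 fell, led by Ms4a6b (2.07 ± 0.17), Ms4a4c (2.06 ± 0.18) and Ms4a6c (1.56 ± 0.17). Ms4a1, the B cell marker CD20, differed by -0.31 and did not pass.

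Ccr2, the receptor for the monocyte chemoattractant Ccl2, has 4 probe sets, which split. The brightest, 1460067_at, measured 4.13 and 4.17 in Cnot3KO livers and 4.09 and 4.22 in Control livers, with a difference of -0.00 and a 95% interval of -0.41 to 0.41. Both dimmer ones, 1421186_at and 1421188_at, rose. The first of them measured 3.59 and 3.38 in Cnot3KO against 2.27 and 2.24 in Control (1.23 ± 0.17, adjusted p = 0.0139), and the other measured 2.79 and 3.15 in Cnot3KO against 1.96 and 1.78 in Control (1.10 ± 0.20, adjusted p = 0.0264). The fourth, 1421187_at, was removed by the filter at 1.32 and 1.24 in Cnot3KO and 1.30 and 1.43 in Control. Which part of the transcript each probe set reads is not given in the sources used here. The call of 1421188_at was lost without any of the arrays (adjusted p 0.0587, 0.117, 0.0761 and 0.0813 without Cnot3KO replicates 1 and 2 and Control replicates 1 and 2), and that of 1421186_at was lost without Cnot3KO replicate 1 (0.0756) or Control replicate 1 (0.057).

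The ligands and other genes of monocyte entry moved unevenly. Of 8 chemokines and growth factors that recruit or sustain monocytes, 0 passed after adjustment (4 were higher at an unadjusted p under 0.05 by limma and 1 by the methods' test). Ccl2 measured 4.42 and 5.68 in Cnot3KO and 3.80 and 3.94 in Control, a difference of 1.18 ± 0.42 (adjusted p = 0.127), with the second Cnot3KO liver the highest. Of 7 measured markers of recruited monocytes, 4 rose and 0 fell: Plac8 by 2.37, Ms4a4c by 2.06, Chil3 by 1.71 and Ms4a6c by 1.56. Cx3cr1, a chemokine receptor of patrolling monocytes, differed by 0.46 and F13a1, a clotting factor subunit made by monocytes, by -0.03, and neither passed. Among 6 other chemokine receptors only Ccr9 passed (1.45 ± 0.19), by 1 of its 5 kept probe sets.

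Itgax, the alpha chain of an integrin that pairs with Itgb2, measured 5.03 and 4.94 in Cnot3KO livers, against 3.71 and 3.39 in Control livers. The groups were 1.23 apart at their nearest, and the difference was 1.43 ± 0.19 (adjusted p = 0.0125) or 2.70-fold. Itgb2 rose by 1.05 ± 0.19 (adjusted p = 0.0282), whereas the sister chains Itgam (0.45) and Itgal (0.51) did not pass. Itgam lay near the bottom of the arrays, with 1.94 and 1.59 in Cnot3KO and 1.24 and 1.4 in Control. At that level its values cannot decide whether Itgam followed Itgax. Without Cnot3KO replicate 1 the Itgax difference was 1.39 and its adjusted p was 0.055. Itgax is also carried by dendritic cells. Of 8 measured dendritic cell markers 0 passed after adjustment, with 0 at an unadjusted p under 0.05 by limma or by the methods' test. Their differences ran between -0.41 (Zbtb46) and 0.54 (Clec10a). The markers were dim, with a mean level of 3.22 and 3.12 in Cnot3KO and 3.03 and 3.08 in Control, so a small change could be missed. The part of dendritic cells in the Itgax values was not tested.

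Cd9 and Lgals3 were among the brighter probe sets and both rose. Cd9, a tetraspanin that organises membrane proteins, measured 9.53 and 9.18 in Cnot3KO livers and 7.26 and 7.05 in Control livers. The difference was 2.20 ± 0.20 (adjusted p = 0.00636) or 4.59-fold. Lgals3, the galectin that binds damaged lysosomes and is secreted by macrophages, measured 9.10 and 8.73 in Cnot3KO and 6.05 and 5.75 in Control, a difference of 3.01 ± 0.21 (adjusted p = 0.00422) or 8.06-fold. For both genes the gap between groups was several times the gap between replicates. Among the 5 measured genes of the tetraspanin list, which leaves out Cd9, only the leukocyte gene Cd53 passed (0.89 ± 0.16). Cd81, the closest relative of Cd9, differed by 0.04. Tspan8, a tetraspanin listed with the cholangiocyte markers instead, rose by 4.63 ± 0.38 (adjusted p = 0.00567). It did so by 1 of its 5 kept probe sets, from 1.21 and 1.88 in Control livers. Of 7 other measured galectin genes 1 rose and 1 fell: Lgals1 rose by 2.54 ± 0.20, and Lgals4, a galectin of gut epithelium, fell by 1.27 (SE 0.17, adjusted p = 0.0135). Lgals3bp, which encodes a glycoprotein that binds galectins, rose by 2.27 ± 0.28.

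Mmp12, the secreted elastase, had the largest difference of the 10 genes. It measured 6.67 and 5.64 in Cnot3KO livers and 1.83 and 2.06 in Control livers, where it lay close to the 20th percentile of the arrays (1.64 and 1.69). The difference was 4.22 ± 0.36 (adjusted p = 0.00569) or 18.6-fold, with a 95% interval of 9.99 to 34.6. This fold is measured against a Control level near the bottom of the arrays, so its size is uncertain beyond the interval. Of 10 other measured matrix metalloproteinase genes, 3 rose and 0 fell: Mmp13, a collagenase (3.85 ± 0.38), Mmp14, a membrane-bound activator of other metalloproteinases (1.44 ± 0.21), and Mmp23 (1.25 ± 0.17). Mmp13 measured 4.71 and 5.74 in Cnot3KO against 1.11 and 1.63 in Control, with the second Cnot3KO liver the higher. In Control it lay below the 20th percentile of both arrays and passed the filter through the Cnot3KO arrays alone, so its rise is measured against a level near the bottom and gives no reliable fold. Mmp9, the gelatinase stored by neutrophils, differed by -0.59 and did not pass.

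Lyz2, the lysozyme gene of macrophages and granulocytes, measured 8.94 and 9.11 in Cnot3KO livers and 7.83 and 8.34 in Control livers. The groups did not overlap, but the difference of 0.94 ± 0.23 missed the threshold (adjusted p = 0.0531; 95% interval 0.37 to 1.51). Lyz1 is a near-identical copy, and probe sets of either gene may read both. Its probe set 1436996_x_at measured 10.13 and 9.99 in Cnot3KO against 8.96 and 9.17 in Control (1.00 ± 0.17, adjusted p = 0.0244). Lyz1 1439426_x_at rose as well, with 8.66 and 8.46 in Cnot3KO against 7.56 and 7.71 in Control (0.93 ± 0.17, adjusted p = 0.0286). The Lyz1 probe set 1450822_at was below the filter, at 1.43 and 1.47 in Cnot3KO and 1.37 and 1.61 in Control. Lyz2 passed without Control replicate 2 (1.20, adjusted p = 0.046).

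**Figure D2:**
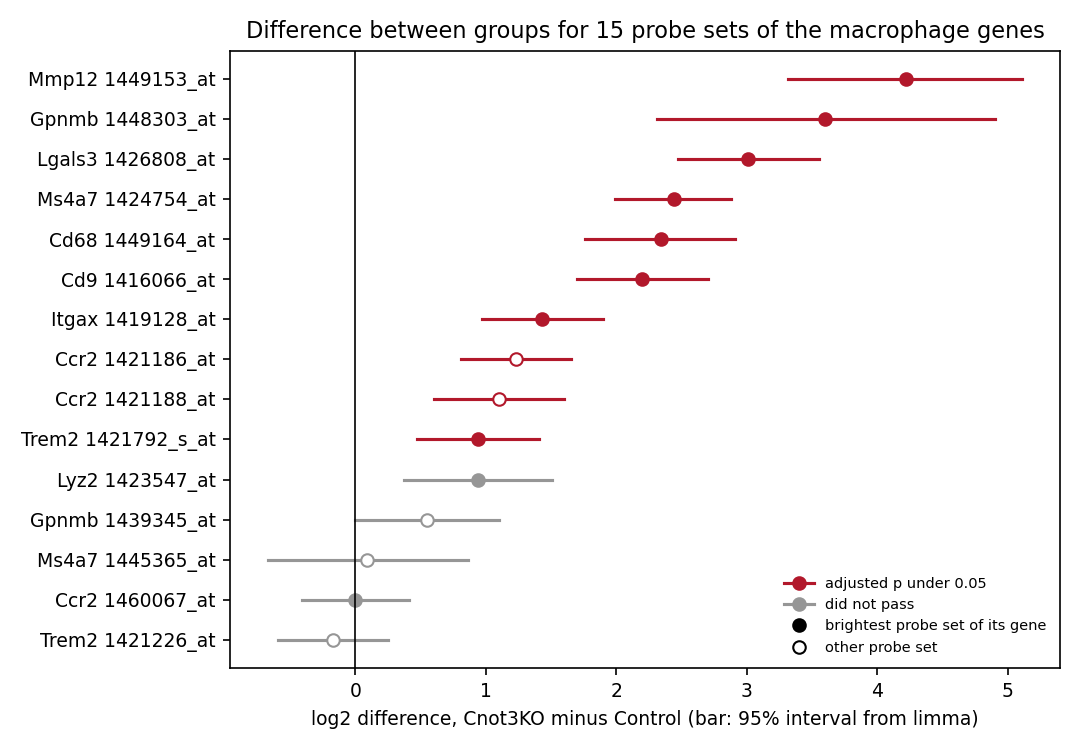
Log2 difference, Cnot3KO minus Control (x axis), with its 95% limma interval, for the 15 kept probe sets (rows, ordered by size; filled, brightest of its gene). The 10 red rows have an adjusted p under 0.05, and Gpnmb, Trem2, Ms4a7 and Ccr2, the 4 genes with several probe sets, each have some on both sides of the call.

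Whether these genes moved with macrophage genes in general was asked by comparison with genes that macrophages of all kinds share. Of 17 measured pan-macrophage genes 12 rose and 0 fell, with a median of 1.09. Cd14, the co-receptor for endotoxin, rose by 3.42 ± 0.36, and Cybb, the oxidase subunit of phagocytes, rose by 2.72 ± 0.19. Adgre1, which encodes F4/80, differed by 0.80 and Csf1r, the receptor for macrophage growth factor, by 0.38, and neither passed. Their mean level was 7.32 and 7.45 in Cnot3KO livers and 6.07 and 6.17 in Control livers. This mean was subtracted from every probe set of its array and the fit repeated, so that a difference of 0 means a change as large as the pan-macrophage mean. Subtraction lowers every gene alike: the median over all genes became -1.27, with 2.89% of genes higher and 80.5% lower, and calls of the 10 genes are to be read against those shares. The error of the mean itself is shared by all genes and is not fully contained in the p-values. The mean includes Itgam, which lay near the bottom of the arrays, and a mean without Itgam was not computed.

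On this scale 6 of the 10 genes were higher, 1 was lower and 3 did not pass, with a median of 1.00. With the probe sets of a gene averaged, 4 were higher and 2 were lower: Gpnmb missed the threshold (0.80, adjusted p = 0.0868) and Ms4a7 was at -0.00. Mmp12 exceeded the pan-macrophage mean by 2.94 ± 0.38, Gpnmb by 2.33 ± 0.54, Lgals3 by 1.74 ± 0.26, Ms4a7 by 1.17 ± 0.20, Cd68 by 1.07 ± 0.23 and Cd9 by 0.93 ± 0.24 (adjusted p between 0.000901 for Mmp12 and 0.0105 for Cd9). Itgax differed by 0.16 (95% interval -0.39 to 0.71), Trem2 by -0.33 (-0.87 to 0.21) and Lyz2 by -0.33 (-0.85 to 0.19). The brightest Ccr2 probe set was lower by this measure, at -1.27 ± 0.18 (adjusted p = 0.00104), and its other kept probe sets differed by -0.04 and -0.17 and did not pass. By probe set, 6 of 15 were higher and 4 lower; besides Ccr2 1460067_at the lower ones were Trem2 1421226_at (-1.44, adjusted p = 0.000951), Ms4a7 1445365_at (-1.18) and Gpnmb 1439345_at (-0.72). On single arrays, Mmp12 minus the pan-macrophage mean was -0.65 and -1.81 in Cnot3KO and -4.24 and -4.11 in Control. For Lgals3 the same value was 1.78 and 1.27 in Cnot3KO and -0.02 and -0.42 in Control, so that neither gene overlapped between groups. Without Cnot3KO replicate 1 the relative call of Cd9 was lost (0.69, adjusted p = 0.0681) and the relative difference of Gpnmb was 1.50. Without Cnot3KO replicate 2 it was 3.16 for Gpnmb and 3.53 for Mmp12.

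**Figure D3:**
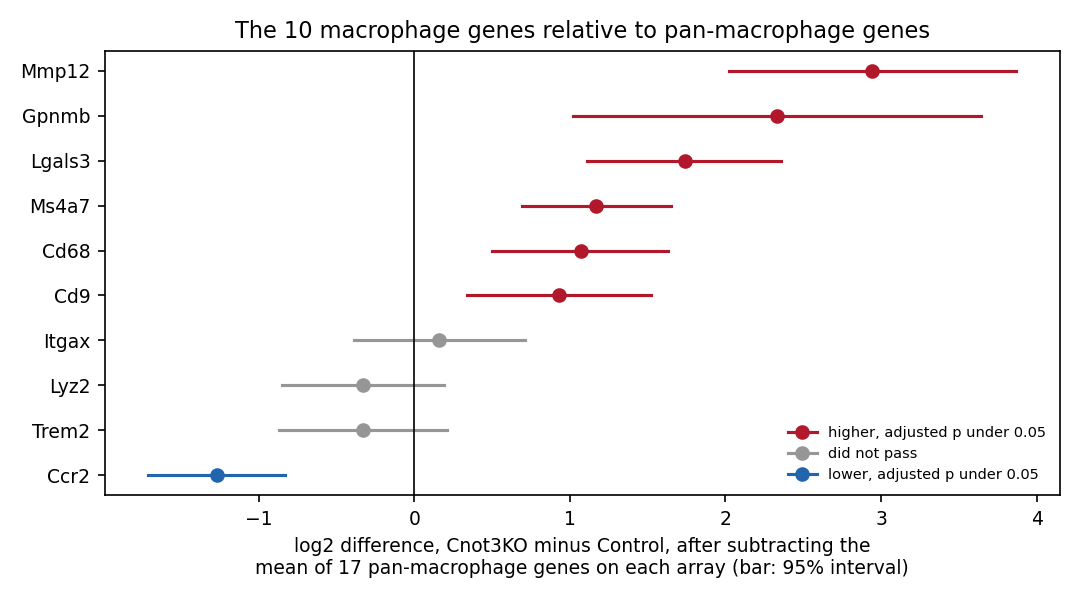
Log2 difference, Cnot3KO minus Control, after the mean of 17 pan-macrophage genes on each array is subtracted (x axis), with its 95% interval, for the brightest probe set of each of the 10 genes (rows). Of the genes, 6 lie above 0 with intervals that do not reach it, Itgax, Lyz2 and Trem2 span 0, and Ccr2 lies below.

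Markers of resident Kupffer cells had a median difference of 0.60. Of 10 measured markers 2 rose, Id3 (1.51 ± 0.20) and Cd5l (1.10 ± 0.18), and 1 fell. Cd163, the haemoglobin scavenger receptor, measured 1.90 and 1.63 in Cnot3KO against 5.89 and 5.39 in Control, a difference of -3.87 ± 0.23 (adjusted p = 0.00399). Clec4f, a lectin found on Kupffer cells alone in mouse liver, measured 8.44 and 8.73 in Cnot3KO and 8.02 and 7.94 in Control and did not pass (0.60 ± 0.18, adjusted p = 0.0908), and Timd4, a receptor of long-lived Kupffer cells, differed by -0.13. The mean level of the 10 markers was 7.24 and 7.37 in Cnot3KO and 7.29 and 6.97 in Control, which overlap. Without Cd163 it was 7.83 and 8.0 in Cnot3KO and 7.44 and 7.14 in Control. Measured against the mean without Cd163, Gpnmb, Cd68, Ms4a7, Cd9, Lgals3 and Mmp12 differed by 1.57 (Cd9) to 3.59 (Mmp12), Itgax by 0.81, Trem2 and Lyz2 by 0.32 each and Ccr2 by -0.62.

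The wider lipid-associated programme rose in part. Of 18 measured genes 7 rose and 0 fell, with a median of 0.75. They were Capg, an actin-capping protein (2.94 ± 0.19), Clec7a, the beta-glucan receptor dectin-1 (2.63 ± 0.23), the fatty acid translocase Cd36 (1.83 ± 0.16), the lipid droplet protein Plin2 (1.49 ± 0.28) and the lysosomal proteases Ctsz (1.17), Ctsd (0.94) and Ctsl (0.88). Plin2 and Cd36 are made by hepatocytes as well. Ctsz, Ctsd and Ctsl were already bright in Control livers, with means of 10.41, 9.3 and 11.25. Which cells made the transcripts of this list was not tested. Lpl, the lipoprotein lipase (0.65), the lysosomal lipase Lipa (0.44) and the lipid carrier Apoe (-0.33) did not pass. Of 7 transcription factors tied to the programme Mitf rose by 1.30 ± 0.22 and Irf8 by 1.29 ± 0.22, whereas Cebpb fell by 0.89 (SE 0.19, adjusted p = 0.0378). Cebpb was bright in Control livers, with a mean of 10.51, and which cells made it was not tested. Pparg differed by 0.08 and did not pass.

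Markers of other cells stood beside these values as follows. Of 8 measured cholangiocyte markers 6 rose, led by Prom1 (5.35), whereas Krt7 (1.02) and Cftr (0.29) did not pass, and the mean level was 6.02 and 5.17 in Cnot3KO livers and 2.70 and 2.72 in Control livers. Tspan8 (4.63) passed by 1 of its 5 kept probe sets, which lay near the 20th percentile in Control. All 8 cholangiocyte markers were higher in Cnot3KO replicate 1 than in replicate 2, as were 7 of the 10 macrophage genes (all but Cd68, Ccr2 and Lyz2). The same held for 9 of 11 neutrophil, 6 of 8 stellate cell and 5 of 7 recruited monocyte markers, and 12 of 18 genes of the lipid-associated programme. It held for 4 of 17 pan-macrophage genes, 3 of 10 pan-leukocyte genes, 4 of 10 Kupffer cell markers and 3 of 10 markers of T, B and NK cells. The share of all genes higher in replicate 1 was not computed, so these counts cannot be set against it. The part of biliary cells in these values was not tested. Of 8 stellate cell markers 5 rose, with Col1a1 (1.90) and Col3a1 (1.73) the largest. Of 11 measured neutrophil markers Ltf (2.00) and S100a8 (1.35) rose, while 0 of 10 markers of T, B and NK cells passed after adjustment (before adjustment limma had 3 higher and 1 lower at p under 0.05, and the methods' test 0 and 1). Of 7 sinusoidal endothelial markers 0 passed after adjustment, and 0 did at an unadjusted p under 0.05 by limma or by the methods' test. Of 6 hepatocyte markers 0 passed after adjustment (before adjustment limma had 1 higher and 1 lower at p under 0.05, and the methods' test 1 and 0). Of 10 pan-leukocyte genes 8 rose, with Ptprc (CD45) at 7.35 and 7.41 in Cnot3KO and 6.51 and 6.40 in Control. Over all lists 59 of 179 measured genes rose and 3 fell. Further kept probe sets of Ms4a6c, Capg, Ctsl, Inpp5d, Mmp23 and Ptprc did not pass. Leaving out Cnot3KO replicate 1, Cnot3KO replicate 2, Control replicate 1 or Control replicate 2 reduced the 59 to 28, 35, 28 and 38.

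**Figure D4:**
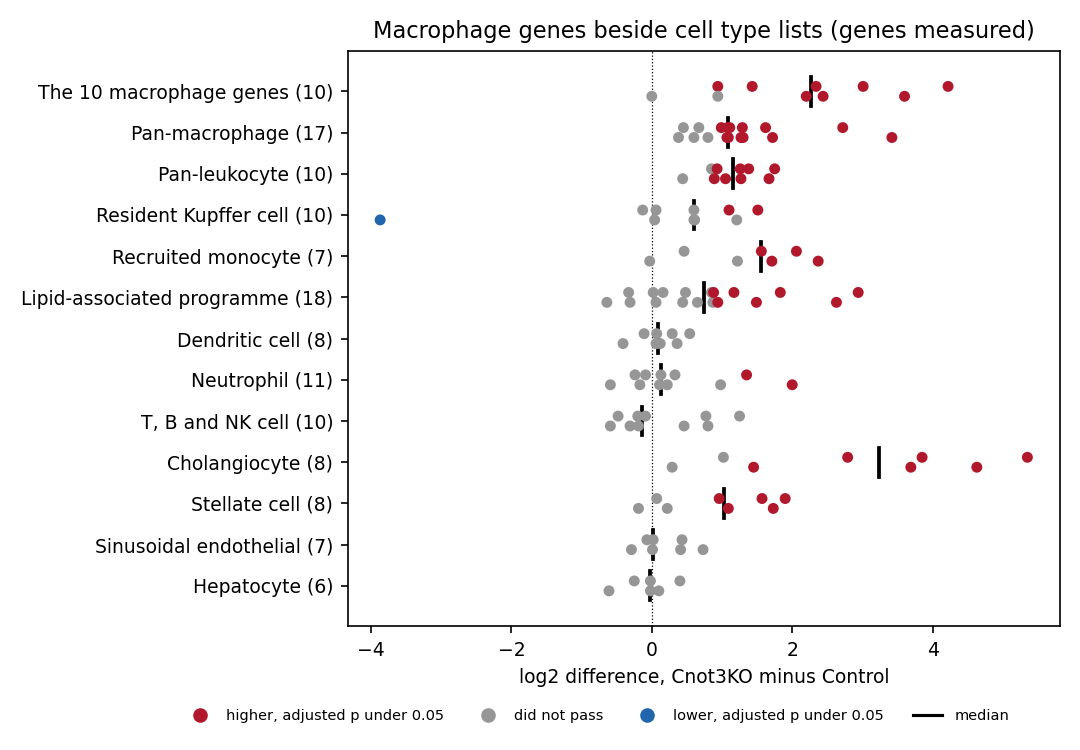
Log2 difference, Cnot3KO minus Control (x axis), of each measured gene (points) in the 10 macrophage genes and 12 marker lists (rows, genes measured in brackets), with a line at each median. The medians are 2.27 for the 10 genes, 1.09 for pan-macrophage genes, 0.60 for Kupffer cell markers and 3.24 for cholangiocyte markers.

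Facts of the arrays bear on all of these values. Cnot3 itself measured 5.15 and 5.30 in Cnot3KO and 5.99 and 6.04 in Control with probe set 1435965_at (-0.79 ± 0.16, adjusted p = 0.0372), and 4.35 and 4.06 in Cnot3KO against 4.71 and 4.51 in Control with 1441465_at, which did not pass; whole liver includes cells that keep the gene, and whether the probes lie in the deleted part is not given in the sources used here. Array medians were 3.09 and 3.09 in Cnot3KO and 3.11 and 3.14 in Control. Pearson's r over kept probe sets was 0.989 between the Cnot3KO arrays and 0.981 between the Control arrays, and 0.937 to 0.948 between groups. With 2 arrays per group the number of arrays limits the precision: the median SE of a difference was 0.192.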

How the data were processed

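Total RNA of 4 livers was hybridised to a 3' expression array by the authors, who summarised probes with Robust Multi-array Average (RMA; version not given in the sources used here). The deposited intensity values are linear, from 1.27 to 16933, and were turned to log2 with no constant. RMA subtracts background and forces arrays to a common distribution, so that low values are compressed and a general shift is removed. Whether other arrays were normalized with these 4 is not given in the sources used here. Probe sets were kept if above the 20th percentile of their array on at least 1 of 4 arrays, after the study's 20% cut-off (38405 of 45037, 85.3%). The platform annotation named 1 gene for 34945 probe sets, several for 932 and none for 9160.

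Groups were compared 2-sided with limma 3.58.1 (lmFit, eBayes) in R 4.3.3, with 5.40 total degrees of freedom (3.40 from the prior) and Benjamini-Hochberg adjustment over all kept probe sets. The fit was tested on simulated data. The 10 genes and the 25 gene lists were chosen with earlier results of these data known. Named were all 10 genes with every probe set, their family relatives, Cnot3, Lyz1, and of each list up to 4 that passed with the largest difference and any that passed the other way, or up to 2 where none passed. Some of these were left out for space; Adgre1, Csf1r, Clec4f, Timd4, Syk, Cx3cr1, F13a1, Lpl, Lipa, Apoe, Pparg, Krt7, Cftr and Ptprc were named after their values were seen. As alternatives the filter was dropped or raised to a mean above the 50th percentile, and the fit was repeated with another quantile normalization, centring on medians, ribosomal protein genes or Rplp0, the replicate number as a block, other priors, the methods' t-test (plain, with equal variances; elsewhere the methods' test), a 2-fold difference with no test, no _x_at or _s_at probe sets, probe sets averaged per gene, other lists to subtract, and each array left out. Tables and figures were made in Python 3.11.15 (pandas 2.3.3, numpy 2.4.6, matplotlib 3.10.9). Motif words were searched by exact match on both strands.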

Additional observations from a re-analysis of the deposited data

How the results depend on the processing

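Leaving out an array gave 6 to 7 of the 10 genes higher in place of 8, and 6 to 8 probe sets in place of 10. List genes that rose became 28 to 38 and those that fell 1 to 2. For the 10 genes the calls lost are those given beside each gene; those lost among list genes are not named. With the methods' t-test, 0 genes and 0 probe sets of the 10 genes rose after adjustment, and 0 list genes rose and 0 fell. At an unadjusted p under 0.05, 8 of 10 genes and 54 of 179 list genes were higher, and 8 list genes lower. Over all 38405 probe sets, 3860 were higher and 3977 lower at that unadjusted threshold. After adjustment 0 of them were higher and 1 lower. That test estimates each spread from 2 arrays per group alone. Without _x_at and _s_at probe sets Trem2 is read by 1421226_at and its difference was -0.17 (adjusted p = 0.525). With probe sets averaged per gene Trem2 missed the threshold (0.38, adjusted p = 0.165), Ccr2 rose by 0.78 (adjusted p = 0.0228) and Ms4a7 relative to pan-macrophage genes was -0.00, and Gpnmb by the same measure missed the threshold (0.80, adjusted p = 0.0868), as dim probe sets enter the mean. Centring on Rplp0 ended the calls of Trem2 (adjusted p = 0.0807) and of Ccr2 1421188_at (0.0528). Lyz2 passed with a mean above the 50th percentile (0.0462), with centring on array medians (0.045) and with probe sets averaged per gene (0.0406).

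Samples of the same number deviated together with a correlation of 0.232 over 2 pairs, and the labels tie no litter or day to a number. With the replicate number as a block 8 genes and 10 probe sets still rose, Trem2 moved to an adjusted p of 0.0536 and Lyz2 to 0.0478, 56 list genes rose and 2 fell, and relative to pan-macrophage genes 6 genes were higher and 1 lower.

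Relative to pan-macrophage genes, the count of lower probe sets was 2 with a mean above the 50th percentile. With the methods' t-test 1 gene and 1 probe set were higher and 2 probe sets lower. Lower genes were 2 without _x_at and _s_at probe sets and 2 with probe sets averaged per gene, Trem2 and Ccr2 in both cases. Against the Kupffer cell list in place of the pan-macrophage list, 0 genes and 0 probe sets were lower. Trem2 and Lyz2 (0.77 each), Gpnmb 1439345_at (0.38), Ccr2 1421186_at (1.06) and Ccr2 1421188_at (0.93) changed sign. Against that list without Cd163, chosen after seeing the data, 0 genes and 1 probe set were lower. These Kupffer cell means differed less between groups than the pan-macrophage mean, so their subtraction lowers all genes less. The share of all genes lower on these scales was not computed, so the counts cannot be set against it. The Kupffer cell mean differed by 0.32 between the Control arrays, an error that all probe sets share. That error may not be fully contained in the p-values on this scale, which are not given. The counts of lower genes and probe sets on these scales rest on such p-values and carry the same limit. What depends on depth here is signal over background: probe sets near the 20th percentile, as Mmp12 in Control, Gpnmb 1439345_at and Ms4a7 1445365_at, carry little information on small differences.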
